A study of Mus musculus with 12 samples.

Results

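The small RNA response to POVPC was measured in primary smooth muscle cells of the mouse aorta (MASMC) that had received a non-target siRNA pool (siNT), against the vehicle DMSO. The 6 arrays were chosen by their source name, out of 12 arrays in the series. The siNT-DMSO group (3 arrays) and the siNT-POVPC group (3 arrays) were both transfected for 48 h with the non-target pool and then treated for 24 h with DMSO or with 10 μg/mL POVPC. The other 6 arrays held cells given siRNA against Oct4 with the same treatments, siOCT4-DMSO and siOCT4-POVPC, and were used here only to set a difference beside its counterpart. Both siNT groups thus share the transfection, and the level of the Oct4 transcript itself was not analysed here. The labels give no strain or age for the cells, and nothing states that replicates were separate cultures, so p-values measure only the spread between these arrays, which may be technical.

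POVPC is an oxidized phospholipid of atherosclerotic lesions. It is known to turn smooth muscle cells from a contractile state towards a migratory state. A miRNA is a short RNA cut from a hairpin precursor, which guides a silencing complex to mRNAs mainly through its seed, bases 2 to 8 of its 5′ side. Most precursors give a 5p and a 3p arm, often with one of them prevailing. miRNAs of the same cluster are cut from shared transcripts and often move together.

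The arrays read each miRNA with up to 5 nested probes. Only 520 probes could be named, for 110 miRNAs, and each of these miRNAs had been picked by the study as changed in some comparison on these arrays, so the named set is a selected one. The sources used here name no probe of the markers chosen for smooth muscle (miR-143 and miR-145), endothelium (miR-126a), blood cells (miR-142a, miR-223 and miR-451a) or epithelium (miR-200c and miR-141), so the cell type was not checked against them. All values are log2 signals of the processed intensity after quantile normalization, and a difference is always siNT-POVPC minus siNT-DMSO on that scale. All 6 siNT arrays lay on 1 slide and had between 7940 and 10144 small RNA probes well above background. Over miRNA probes, arrays correlated at 0.938 to 0.965 within siNT-DMSO, at 0.954 to 0.981 within siNT-POVPC and at 0.939 to 0.970 between the groups, ranges that overlap.

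Comparing siNT-POVPC with siNT-DMSO, dim probes of a small set of miRNAs were lower after POVPC, by up to 2.64 on the log2 scale. Bright miRNA probes leaned the other way, with small gains that no probe carried past the test. Of 8621 miRNA probes tested with limma, 19 passed an adjusted p of 0.05 with a fold change of 1.5, which is 0.22% of them, and all 19 were lower. At an unadjusted p under 0.05 with the same fold, limma gave 107 higher and 104 lower probes, so the direction of the called probes was not that of the wider set. Among the 110 named miRNAs, 9 held a called probe, and the mean over the probes of a miRNA was higher after POVPC for 80 miRNAs and lower for 30, in a set selected by the study, while 49.8% of all tested miRNA probes were higher. The number of called probes was 3, 2 and 0 without siNT-DMSO replicates 1, 2 and 3, and 4, 3 and 2 without siNT-POVPC replicates 1, 2 and 3. No miRNA probe was called with all 12 arrays in the fit, nor with the row of the array on the slide as a block. With normexp background correction, which adds 50 to each signal, 1 probe was called and it was higher.

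The mature sequences of the 11 miRNAs that the study lists as lower for this comparison are given because they carry a feature that the study's list did not use. They are the sequences of the study's annotation, 5′ to 3′, and 9 of them are identical to RefSeq entries (GRCm38.p6). Capitals near the 5′ end mark the seed, and capitals at the 3′ end mark CCAGC or CAGGCU where the sequence ends in it.
miR-6927-5p: gUGAGGGGauccagccCAGGCU
miR-7687-5p: aGGCGGGGaaccugaggcgCAGGCU
miR-3569-3p: uCAGUCUGcgcuccucuCCAGC
miR-7679-3p: cAGGAUCCcaggguaccaaCCAGC
miR-19b-1-5p: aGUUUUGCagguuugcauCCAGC
miR-184-5p: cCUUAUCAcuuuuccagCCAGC
miR-5120: uUUGGGGCuguggugccaCCAGC
miR-547-5p: cACUUGAGgauguaccaccca
miR-6934-3p: aCCUCUGCuccugccccaccag
miR-1258-3p: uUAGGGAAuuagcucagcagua
miR-6970-3p: uCACGCCAcccacccugugcu

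The 11 sequences carried 11 different seeds. At the other end they were alike: 5 of the 11 ended in CCAGC and 2 more ended in CAGGCU. Among 1679 mature mouse miRNA names in RefSeq, 6 end in CCAGC (0.357%) and 3 end in CAGGCU (0.179%), and none of the 10 miRNAs listed as higher ends in either. The other names are miR-7662-5p and miR-148b-5p, for which no probe is named here. This feature was looked for after the values had been seen, in sequences that the study had chosen on these arrays, and it is given as a description.

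The probes read precisely this end. All 520 named probes pair with their miRNA up to its last base, over a stretch that begins further upstream in the longer probes, and each has 1 unpaired G at its own 5′ end. The 5 probes of miR-6927-5p show the design, written as DNA from 5′ to 3′ with that further base in capitals.
12 bases: Gagcctgggctg
13 bases: Gagcctgggctgg
14 bases: Gagcctgggctgga
15 bases: Gagcctgggctggat
16 bases: Gagcctgggctggatc

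The differences of these probes, from the shortest to the longest, were −2.59, −2.55, −2.64 and −2.06 for the first 4, while the longest was not well above background on any POVPC array, which bounds its change (at least 3.03-fold lower). Each was lower in all siNT-POVPC arrays than in all siNT-DMSO arrays. The 15-base probe was the only one of the 5 that was not called (limma, adjusted p 0.157). The paired stretch began at base 12 of the miRNA in the shortest probe and at base 8 in the longest, so nearly all of the seed lay outside it.

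miR-6927-5p, whose gene lies within the span of Mllt6 (chr11:97677060-97677081, GRCm38.p6, plus strand), had the largest difference among the named miRNAs. The mean over its 5 probes was 4.32, 4.91 and 4.60 on siNT-DMSO replicates 1 to 3 and 2.27, 2.16 and 2.32 on siNT-POVPC replicates 1 to 3. All 3 POVPC arrays were far below all DMSO arrays, and the groups did not come near each other. The difference was −2.36 (SE 0.17), and 4 of the 5 probes were called, with adjusted p between 0.00579 and 0.0425 in limma. When the probes of each named miRNA were averaged before the fit, giving 8211 features, this miRNA and miR-3569-3p were the only ones called (adjusted p 0.0127 and 0.0307).

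miR-7687-5p, whose gene lies within the span of Gse1 on chromosome 8, averaged 3.28, 3.79 and 3.38 in siNT-DMSO and 2.13, 2.20 and 1.5 in siNT-POVPC. The groups were apart, and 2 of its 5 probes were called. On those 2 probes no POVPC array was well above background, so the change is only bounded there, at least 2.87-fold and at least 2.55-fold lower. The 3 longer probes, each measured on 1 or more POVPC arrays, differed by −1.501, −1.09 and −0.75, and the groups of the longest overlapped.

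Among the 5 miRNAs ending in CCAGC, every one of the 25 tested probes was lower after POVPC with no overlap between the groups, 7 of the 25 were called, and their differences ran from −1.60 to −0.44. Over all tested miRNA probes 8.68% were apart in this direction and 0.22% were called. All 5 miRNAs are on the list that the study chose as lower on these arrays, so their direction was given beforehand. The nested probes of a miRNA overlap, so the 25 are not separate observations, and the counts are a description. For miR-3569-3p (within the span of Gm32082, chr7:30589416-30589437, plus strand), the mean over 5 probes was 3.73, 3.94 and 3.83 in siNT-DMSO and 2.43, 2.56 and 2.45 in siNT-POVPC, a difference of −1.35 (SE 0.12). The arrays of each group lay close together, so the gap between groups was many times the spread within them. miR-7679-3p, within the span of Slfn9, averaged 4.53, 4.73 and 4.69 in siNT-DMSO and 3.45, 3.33 and 3.67 in siNT-POVPC, a difference of −1.17 (SE 0.14). Its groups were apart as well, and 2 of its 5 probes were called.

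miR-19b-1-5p is the minor arm of a hairpin of the miR-17-92 cluster, a cluster known for its part in cell proliferation. It averaged 3.95, 4.19 and 4.06 in siNT-DMSO and 2.88, 2.71 and 3.29 in siNT-POVPC. Its difference was −1.11 (SE 0.17), with the groups apart and 1 probe called (adjusted p 0.0427). miR-184-5p is the minor arm of miR-184, a miRNA best known from the lens and cornea of the eye. It averaged 3.20, 3.61 and 3.52 against 2.35, 2.37 and 2.43, and again 1 of 5 probes was called. miR-5120, within the span of Pax5, averaged 4.11, 4.12 and 4.03 against 3.14, 2.96 and 3.35. None of its probes passed the test, though the groups were apart on each of them.

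The remaining 4 listed miRNAs do not share those ends. miR-547-5p, from the X chromosome, averaged 3.85, 4.45 and 3.86 in siNT-DMSO and 2.44, 2.33 and 2.84 in siNT-POVPC, with 1 probe called at an adjusted p of 0.0499. miR-6934-3p, within the span of Tbc1d16, averaged 3.76, 3.93 and 3.63 against 2.62, 2.98 and 2.96, also with 1 probe called. For both of them every DMSO array was above every POVPC array. miR-1258-3p averaged 3.91, 4.16 and 3.81 against 3.11, 3.20 and 3.21. One of its probes was called (adjusted p 0.0427), but the 5 probes differed widely, from −1.46 to 0.01. miR-6970-3p had a single tested probe, at −1.31 and not called.

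**Figure D1:**
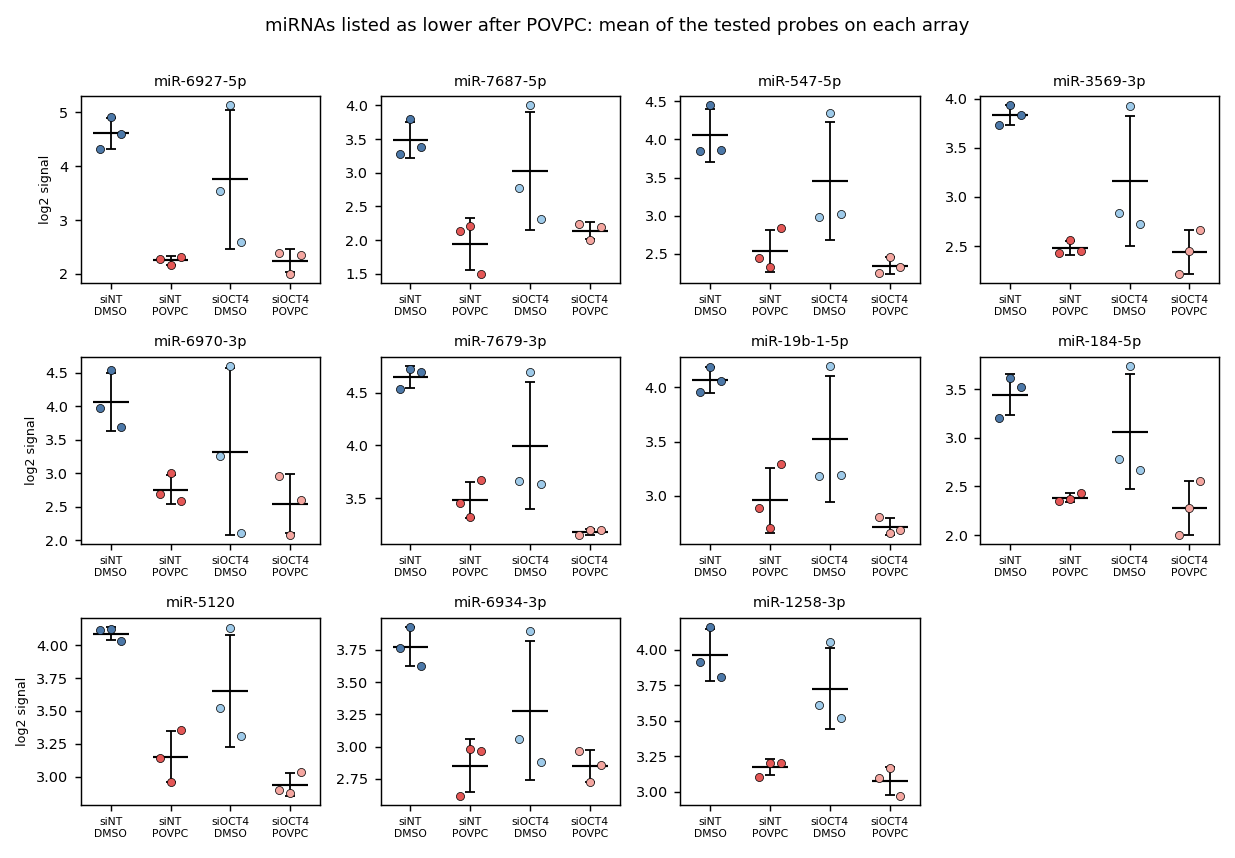
Log2 signal (vertical axis, each panel with its own scale) of the 11 miRNAs listed as lower, as the mean of their tested probes, on each of the 12 arrays in 4 groups. Points are arrays in replicate order, bars the group mean and whiskers the SD (n = 3). In every panel the 3 siNT-POVPC arrays sit below the 3 siNT-DMSO arrays, and the siOCT4-DMSO arrays are spread out, with replicate 2 at the level of siNT-DMSO.

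The 3 called probes without a name were MIRNA100001569, MIRNA100009124 and MIRNA100009233. The first stood at 5.05, 5.40 and 5.49 in siNT-DMSO and at 4.00, 3.99 and 4.06 in siNT-POVPC, and was well above background on all 6 arrays. The other two were not well above background on any POVPC array. Of the 19 called probes, 7 were well above background on all 6 siNT arrays and 6 on none of the POVPC arrays.

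The same probes were uneven among the siOCT4-DMSO arrays, which had no POVPC. On all 19 of them replicate 2 was the highest siOCT4-DMSO array and was no lower than the lowest siNT-DMSO array, while replicates 1 and 3 lay below every siNT-DMSO array on all 19. Over all 8621 tested miRNA probes replicate 1 lay below every siNT-DMSO array on 24.2% of probes, and replicate 3 on 22.03%. The 19 were called partly through high siNT-DMSO values, which favours other arrays lying below them, so these shares are not a like comparison. Before normalization siOCT4-DMSO replicate 3, which lay on the other slide, stood apart from every other array of the series. Its median small RNA signal was 24.1, against 5.58 to 8.73 on the others. It had 11759 small RNA probes well above background, against 7706 to 10144. A probe of miR-6927-5p, MIRNA100006501, shows the pattern, with 3.54, 5.30 and 2.83 on siOCT4-DMSO replicates 1 to 3 and 2.56, 2.26 and 2.51 on siOCT4-POVPC. Low values of these probes were thus found without POVPC too, and what the arrays with low values share was not tested.

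In siOCT4 cells POVPC went with lower means of all 11 listed miRNAs, by 0.43 to 1.51, and for 9 of the 11 means the siOCT4 groups did not overlap. Of their 51 single probes 30 were apart in this direction, as were 10.8% of all miRNA probes. None of these probes was called there. The difference between the POVPC effects of the 2 cell states was not called for any miRNA probe (limma interaction term, lowest adjusted p 0.880; 438 probes at an unadjusted p under 0.05) nor for any PST or TRF probe (lowest adjusted p 0.407; 119 probes). That does not show that the effects were alike, since siOCT4-POVPC lay wholly on the other slide. Only siOCT4-DMSO replicate 3, the array with the highest median signal named above, lay beside it. With slide as a block the counts became 370 and 226, in a fit whose siOCT4 effect rests on that single array.

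The miR-322 cluster of the X chromosome, which also holds miR-503, was the most uniform group on the other side. miR-322 and miR-503 are known to slow the cell cycle in several cell types, and miR-322-5p shares its seed with the miR-15/16 family. All 6 named miRNAs of the cluster were higher after POVPC, with a median difference of 0.58 against −0.00 over all tested miRNA probes. Of its 30 probes, 30 were higher and 23 had groups that did not overlap (76.7%, where 7.64% of all tested miRNA probes were apart in this direction and 8.68% in the other). None of the 30 was called. All 30 were also higher under each other scaling tried, but the median over the probes, 0.59 here, was 0.22 with normexp and 0.81 with 75th percentile scaling over all small RNA probes. All 4 of its members that the study lists for this comparison were chosen on these arrays, so they are no independent evidence of its direction. The sequences are shown because their genes lie within 6.32 kb of each other (chrX:53048008-53054327, minus strand, GRCm38.p6, RefSeq), with the seed in capitals.
miR-322-5p: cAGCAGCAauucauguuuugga
miR-503-5p: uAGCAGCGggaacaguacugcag
miR-322-3p: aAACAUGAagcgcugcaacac
miR-542-3p: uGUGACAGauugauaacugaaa
miR-450a-5p: uUUUGCGAuguguuccuaauau
miR-450b-3p: aUUGGGAAcauuuugcaugcau

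The 6 seeds are all different, though those of miR-322-5p and miR-503-5p differ only in their last base, so the group is one of position. miR-322-5p averaged 7.77, 8.09 and 7.96 in siNT-DMSO and 8.68, 8.59 and 8.51 in siNT-POVPC, a difference of 0.65 (SE 0.13). The lowest adjusted p among its probes was 0.160 (limma). The other arm, miR-322-3p, averaged 5.84, 5.93 and 5.78 against 6.42, 6.31 and 6.43, a difference of 0.54 (SE 0.12). Both arms were apart on all 5 of their probes.

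miR-450a-5p averaged 5.90, 6.34 and 6.23 in siNT-DMSO and 6.79, 6.72 and 6.81 in siNT-POVPC, a difference of 0.62 (SE 0.15). miR-542-3p stood at 4.67, 4.84 and 4.60 against 5.17, 5.17 and 5.34, and miR-450b-3p at 3.71, 3.74 and 3.71 against 4.16, 4.09 and 4.07. In these 3 miRNAs every POVPC array was above every DMSO array. miR-503-5p was the exception, with 4.91, 4.87 and 5.33 against 6.15, 5.99 and 4.97. Here siNT-POVPC replicate 3 fell within the DMSO range, and the SD of the POVPC group was 0.64.

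In siOCT4 cells all 6 miRNAs of the cluster were higher after POVPC too, with groups apart for 6 of 6 and a median difference of 0.75. Of all single miRNA probes 11.5% were apart in this direction. The 6 are named only because the study picked each as changed in some comparison on these arrays, so their count is a description. The test of the difference between the cell states was not passed for any of them. Among the named miRNAs that share the miR-15/16 seed or stand beside it, miR-195a-5p (−0.03, SE 0.42) and miR-1907 (−0.03, SE 0.14) did not follow miR-322-5p in siNT cells.

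**Figure D2:**
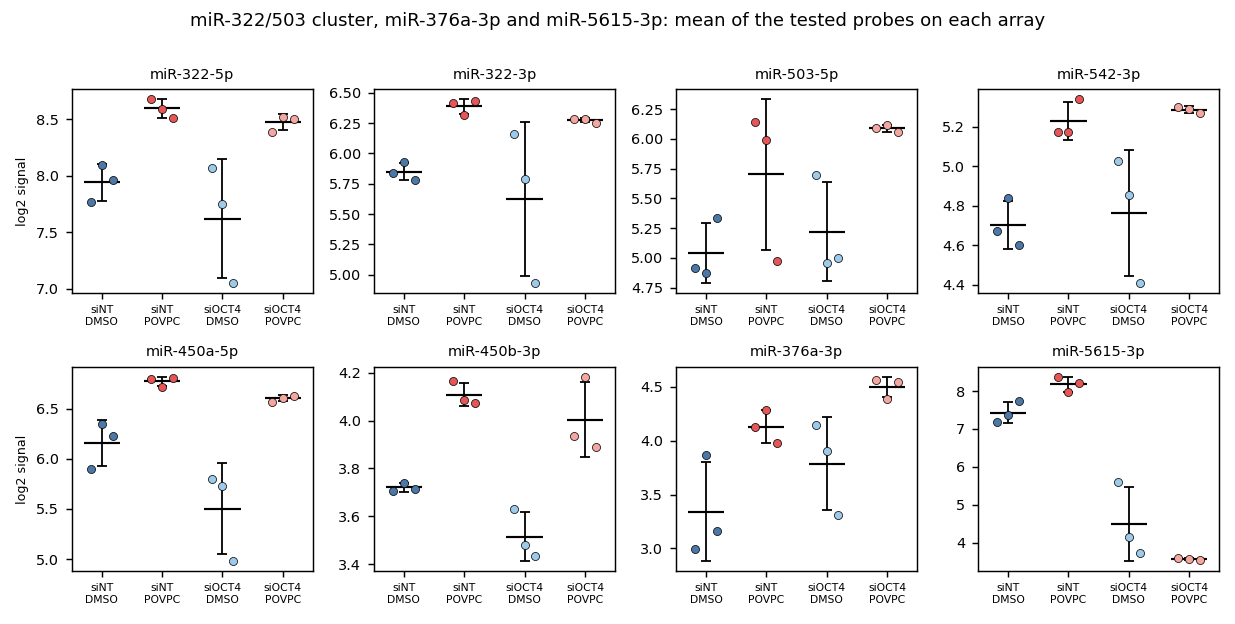
Log2 signal (vertical axis, each panel with its own scale) of the 6 miRNAs of the miR-322 cluster, miR-376a-3p and miR-5615-3p, as the mean of their tested probes, on each of the 12 arrays. Points are arrays in replicate order, bars the group mean and whiskers the SD (n = 3). The cluster is higher after POVPC in both cell states except for 1 siNT-POVPC array of miR-503-5p, while miR-5615-3p is higher in siNT and lower in siOCT4 cells.

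miR-5615-3p came nearest to the test on the higher side. It averaged 7.19, 7.37 and 7.75 in siNT-DMSO and 8.36, 7.96 and 8.23 in siNT-POVPC, a difference of 0.75 (SE 0.18). Its probe MIRNA100005327 stood at 7.62, 7.67 and 7.82 against 8.75, 8.60 and 8.52, a difference of 0.92 (SE 0.13) with an adjusted p of 0.0532 in limma. The groups were clearly apart on this probe. It was called at an adjusted p of 0.0208 with 75th percentile scaling over all small RNA probes, and at 0.0375 with normexp, where it was the higher probe named above.

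Other miRNAs that the study lists as higher for this comparison lie in the imprinted Dlk1-Dio3 region of chromosome 12, a large miRNA cluster expressed from the maternal chromosome. miR-376a-3p averaged 3.00, 3.87 and 3.16 in siNT-DMSO and 4.12, 4.29 and 3.98 in siNT-POVPC, a difference of 0.79 (SE 0.23). miR-379-3p stood at 3.47, 3.52 and 3.59 against 4.15, 4.00 and 3.89, and miR-495-3p at 3.40, 3.42 and 3.35 against 4.04, 3.79 and 3.77. Each of the 3 was higher on every POVPC array. The region as a whole was mixed: of 9 named miRNAs 6 were higher, 5 with groups apart. In this direction the means of 39 of all 110 named miRNAs were apart, and 7.64% of all tested miRNA probes. miR-494-3p, miR-410-5p and miR-485-3p were at −0.32, −0.07 and −0.08 with overlapping groups. The median over the 9 was 0.48, and no probe was called.

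The miR-466, miR-467 and miR-669 families, of which many near-identical copies lie in an intron of Sfmbt2, leaned the same way. Their 20 named miRNAs had positive differences between 0.01 and 0.62, with a median of 0.24 and groups apart for 8 of 20. The means of 39 of all 110 named miRNAs were apart in this direction, and 7.64% of all tested miRNA probes. Not all 20 come from that intron, since miR-466i-3p, miR-466q and miR-467g match RefSeq entries on chromosomes 13, 3 and 5. Near-identical copies can share signal, so these are not 20 separate observations. miR-669a-3-3p averaged 5.10, 5.01 and 5.21 in siNT-DMSO and 5.85, 5.81 and 5.53 in siNT-POVPC, the largest difference of the families at 0.62 (SE 0.14). miR-669c-3p stood at 8.57, 8.70 and 8.88 against 9.33, 9.26 and 9.03. In siOCT4 cells its difference was 0.0046, from a siOCT4-DMSO mean of 4.98 against 8.72 in siNT-DMSO. The difference between the effects of the 2 cell states was −0.48 (SE 0.31) and was not called (limma interaction term, adjusted p 0.990).

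The let-7 family, which holds back growth-promoting mRNAs in differentiated cells, differed little. Its 5 named members were at 0.04 to 0.33, with a median of 0.16 and groups apart for 2 of 5, let-7g-5p and miR-98-5p. Among all 110 named miRNAs 39 means were apart in this direction, and 7.64% of all tested miRNA probes. The lowest of the 5 values is that of let-7d-3p, the other arm of a let-7 hairpin, which does not carry the let-7 seed. The other 4 were at 0.11 to 0.33. Among them the seed of let-7j, at 0.11, differs from that of let-7g-5p in its last base. let-7g-5p averaged 8.52, 8.29 and 8.42 against 8.65, 8.67 and 8.76. In siOCT4 cells the median of the family was 0.70 with groups apart for all 5, but the difference between the cell states was not called for any of their probes. Of all tested miRNA probes 11.5% were apart in this direction there, a share of single probes and not of means of selected miRNAs. The share over the 110 named miRNAs was not counted for siOCT4 cells.

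The miRNAs of the HOX clusters were higher by 0.22 to 0.48, and 2 of 4 had groups apart. Of all 110 named miRNAs 39 had means apart in this direction, as had 7.64% of all tested miRNA probes. miR-10a-3p averaged 5.20, 5.04 and 5.15 in siNT-DMSO and 5.48, 5.58 and 5.56 in siNT-POVPC. For miR-196a-1-3p the arrays overlapped, at 8.83, 8.50 and 9.20 against 9.51, 9.05 and 9.08. miR-146a-5p and miR-146b-5p, which dampen inflammatory NF-κB signalling, had overlapping groups. miR-146a-5p stood at 7.78, 7.30 and 7.30 in siNT-DMSO and at 6.16, 6.56 and 7.96 in siNT-POVPC. Its POVPC arrays lay both below and above the DMSO arrays. No probe of these lists was called.

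**Figure D3:**
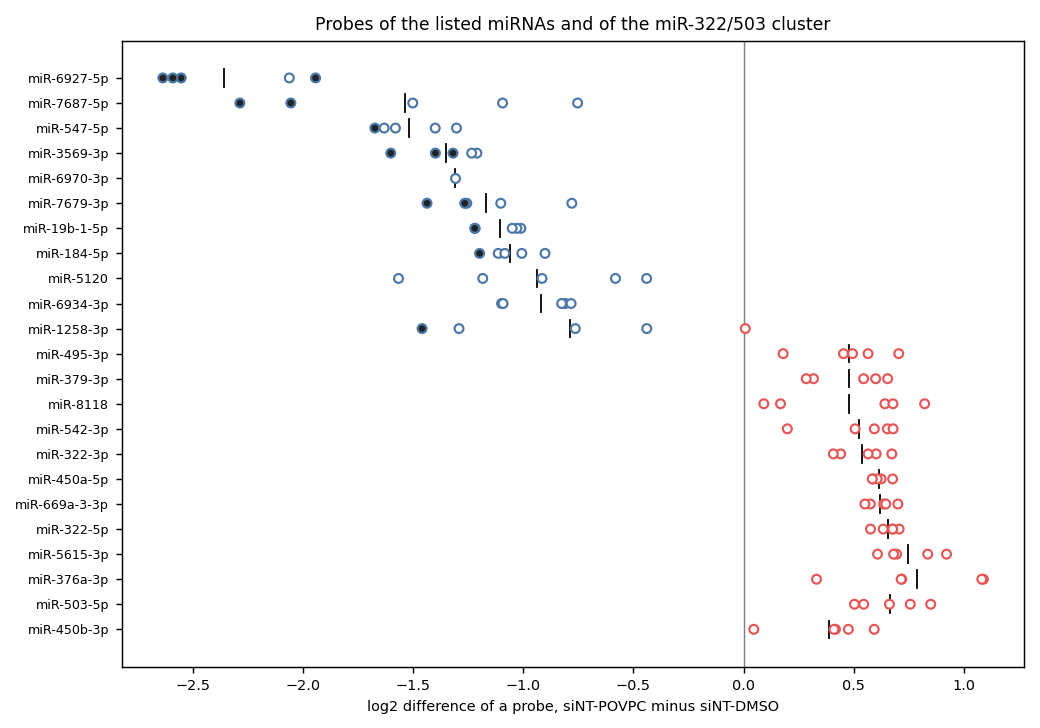
Log2 difference, siNT-POVPC minus siNT-DMSO (horizontal axis), of each tested probe of the 21 miRNAs that the study lists for this comparison and of the 2 other members of the miR-322 cluster. Circles are probes, filled ones were called by limma after adjustment, and vertical ticks are means over the probes of a miRNA. Called probes lie on the lower side, from −2.64 to −1.10.

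Of the 10 named miRNAs with the highest signal over the siNT arrays, 9 had a positive difference, between 0.16 and 0.75, and miR-1224-5p was at −0.31 with overlapping groups. miR-26b-5p averaged 7.78, 7.67 and 7.69 against 7.91, 7.95 and 8.05, a small gap of 0.26 (SE 0.12) that nonetheless kept all arrays apart. miR-27b-3p was higher by 0.25 with groups apart, and miR-199a-3p, a miRNA typical of mesenchymal cells, by 0.20 with groups that overlapped.

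The lean towards higher values was seen over the bright miRNA probes as a set, in which named and unnamed probes were pooled and not compared. Among 237 tested miRNA probes with a mean log2 signal of 8 or more, 34.2% had groups apart with POVPC higher and 5.91% with POVPC lower, and the median difference was 0.17. Among the 2374 probes with a signal between 4 and 6 the shares were 7.21% and 12.4%, with a median of −0.03. The 68 probes below a signal of 2 had a median of 0.19, with 7.35% apart higher and 4.41% apart lower, so the lean did not simply rise with the signal. All 19 called probes had a mean signal below 6. The size of the lean depended on the scaling, since the median of the bright probes was 0.50 with 75th percentile scaling over all small RNA probes and 0.37 with the percentile taken over probes above background on all arrays. Bright probes of the TRF class did not share it, with 3.89% apart higher and 10.4% apart lower among 540 probes.

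**Figure D4:**
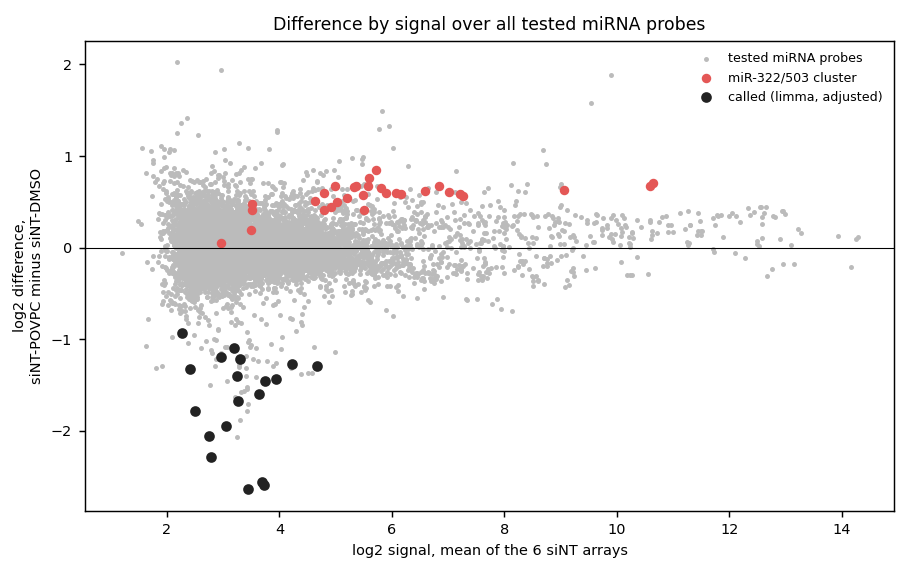
Log2 difference, siNT-POVPC minus siNT-DMSO (vertical axis), against the mean log2 signal over the 6 siNT arrays (horizontal axis) for the 8621 tested miRNA probes. Grey points are all probes, red points those of the miR-322 cluster and black points the 19 called probes. The called probes lie at low signal below zero, and the points on the right lie mostly above zero.

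More probes were detected after POVPC alone than after DMSO alone. Of the tested miRNA probes, 83 were well above background on all 3 siNT-POVPC arrays and on no siNT-DMSO array, and 9 were the reverse. siNT-DMSO replicate 1, the array with the fewest detected probes (7940 against 9200 to 10144 on the other siNT arrays), is among the siNT-DMSO arrays of that count, and its part in it was not tested.

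The arrays also carried probes with the codes PST and TRF in their identifiers, which the sources used here do not spell out and for which no sequence is known here. Of 2006 such probes tested, 3 were called (0.15%), all lower. TRF100005770 stood at 2.83, 2.73 and 2.75 in siNT-DMSO and at 1.27, 1.31 and 1.51 in siNT-POVPC (adjusted p 0.0192), and TRF100005766 at 2.74, 2.90 and 2.81 against 1.97, 1.80 and 1.80 (adjusted p 0.0420). Neither was well above background on any POVPC array. PST100046185 stood at 4.95, 5.55 and 5.20 in siNT-DMSO, and no siNT-POVPC array was well above background, which bounds the change at 7.06-fold lower or more (at least 7.06-fold, limma adjusted p 0.0193). Without siNT-DMSO replicates 1 or 3 or siNT-POVPC replicates 1 or 2, no PST or TRF probe was called, and 2 were called without siNT-DMSO replicate 2 or siNT-POVPC replicate 3. The share of PST and TRF probes with groups apart was 4.24% on the higher side and 7.24% on the lower side.

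Bright probes of these classes that were not called also had groups apart. TRF100002866 stood at 12.8, 14.0 and 13.4 in siNT-DMSO and at 10.5, 10.5 and 10.9 in siNT-POVPC, a difference of −2.79 (SE 0.35, adjusted p 0.109 in limma). It was called with 75th percentile scaling, at an adjusted p of 0.0115 over all small RNA probes. Within the DMSO groups its order among arrays was that of the miR-6927-5p probe MIRNA100006501, but within the POVPC groups it was not. In siNT-DMSO replicate 2 was the highest and replicate 1 the lowest, and the siOCT4-DMSO arrays were at 11.9, 13.9 and 11.8. TRF100004790 stood at 6.33, 6.96 and 6.75 against 5.40, 5.45 and 5.13, and PST100041709 at 9.88, 10.1 and 10.1 against 8.97, 9.07 and 9.37. In both, all POVPC arrays were lower.

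On the higher side, PST100038307 stood at 3.41, 3.49 and 3.35 in siNT-DMSO and at 4.30, 3.99 and 4.204 in siNT-POVPC (adjusted p 0.134). PST100034484 was higher by 0.58 and TRF100006399 by 0.60. All 3 were apart without being called. Among the miRNA probes without a name, MIRNA100004865 stood at 4.43, 4.16 and 4.37 against 5.18, 5.13 and 5.08 (adjusted p 0.0781), MIRNA100004267 was higher by 0.71, and a probe of miR-8118, MIRNA100009350, by 0.82.

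**Figure D5:**
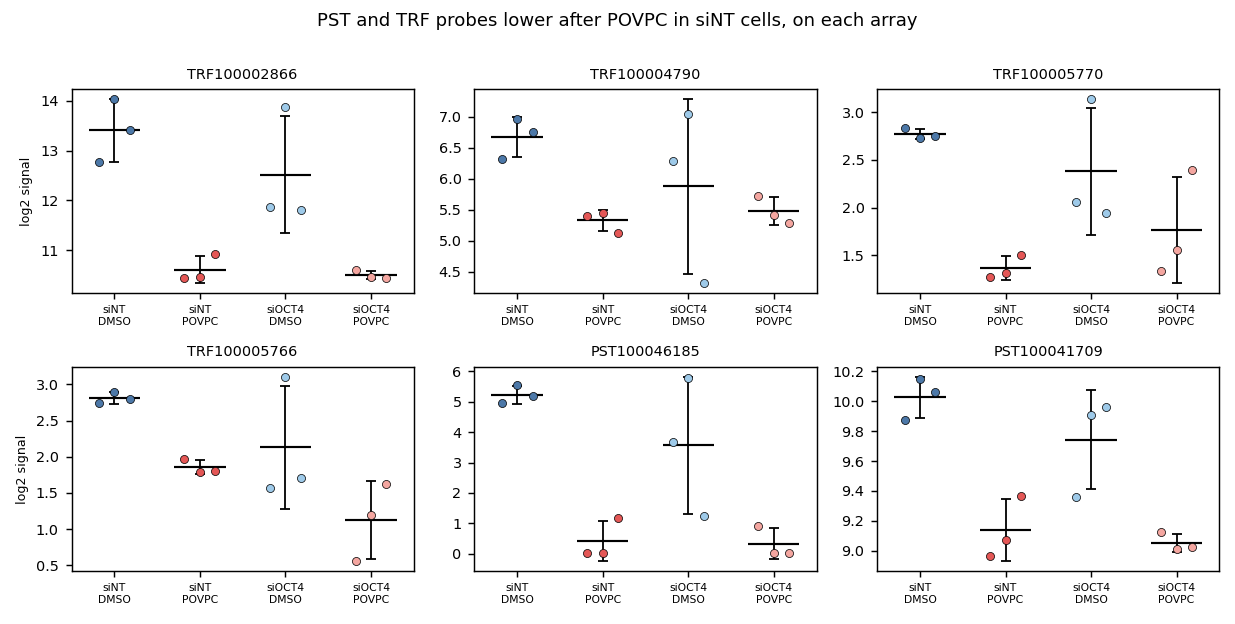
Log2 signal (vertical axis, each panel with its own scale) of 6 PST and TRF probes that were lower after POVPC in siNT cells, on each of the 12 arrays. Points are arrays in replicate order, bars the group mean and whiskers the SD (n = 3). In all panels the siNT groups are apart, and in 5 of them siOCT4-DMSO replicate 2 is the highest array of its group.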

How the data were processed

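Total RNA (100 ng) was dephosphorylated and its 3′ ends were ligated to Cy3, without reverse transcription or PCR, and hybridized to one-colour Arraystar mouse small RNA arrays. Spot intensity values, as deposited, come from Agilent Feature Extraction 11.0.1.1. The deposited series table holds log2 values, which the authors made in GeneSpring GX by quantile normalization, and was used only as an alternative. Other deposited columns (probe identifiers, flags for background, outliers and saturation) were used as given.

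Groups came from the source names, and the description field was not followed. Control spots and spots with an outlier flag (14 to 23 per array, none saturated) were left out, spots of a probe were averaged, and quantile normalization of the processed signals over the 12 arrays was followed by a floor of 1 and log2. Probes well above background on 3 or more of the 12 arrays were tested (8621 miRNA, 334 PST and 1672 TRF probes) in R 4.3.3 with the moderated two-sided test of limma 3.58.1. A call needed 1.5-fold and a p under 0.05 after Benjamini-Hochberg adjustment, with miRNA probes adjusted apart from the others. The difference between the POVPC effects was an interaction term over 12 arrays. With 3 arrays against 3, no exact permutation p can be below 0.1, so none was used. The number of arrays limits the precision. Arrays that share a scan in the file headers are called a slide here, and the array row is the first position code of the header. Where no array of a group was well above background, a bound was taken against the lowest signal above background. The test was checked on simulated data.

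Named probes follow a rule: every called probe, the 21 miRNAs that the study lists for this comparison, per direction the 5 miRNA and 3 other probes of lowest p among those above background on all siNT arrays, the 10 brightest named miRNAs, and miRNA lists. Names and sequences came from annotation columns of the study's tables and 85 of 110 matched RefSeq (GRCm38.p6). The members and lists were chosen with earlier results of these data known. The planned normexp alternative used the median signal, as the files analysed here have no mean signal. The study's tables hold the authors' fold changes and p-values, which were not used.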

Additional observations from a re-analysis of the deposited data

Results flagged for a closer look

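For 6 of the 110 named miRNAs the siNT and siOCT4 groups were apart in opposite directions. None of the differences between the effects passed the test (limma interaction term). Over all tested miRNA probes 7.64% were apart higher and 8.68% lower in siNT cells, and 11.5% and 10.8% in siOCT4 cells. The share apart in opposite directions was not counted over all probes. The mean over the probes of miR-5615-3p differed by 0.75 in siNT cells and by −0.93 in siOCT4 cells, a difference between the effects of −1.67 (SE 0.51, adjusted p 0.990), and its probe MIRNA100005327 gave −2.01 (SE 0.48, adjusted p 0.880). For miR-449a-3p the values were 0.69 and −0.71, a difference of −1.40 (SE 0.34). For miR-299a-3p, of the Dlk1-Dio3 region, they were 0.45 and −0.51, a difference of −0.96 (SE 0.24). miR-6360 stood at 0.25 and −0.58 (−0.82, SE 0.18), and miR-3073b-3p at 0.23 and −0.20 (−0.42, SE 0.17). miR-12204-5p ran the other way, with −0.29 in siNT cells and 0.39 in siOCT4 cells (0.68, SE 0.24). The adjusted p of each of these means was 0.990. The cell states also started from unlike levels under DMSO. Mean siNT-DMSO and siOCT4-DMSO signals were 7.43 and 4.49 for miR-5615-3p, 5.04 and 2.80 for miR-449a-3p, and 3.34 and 2.08 for miR-299a-3p. They were 4.76 and 4.12 for miR-3073b-3p, 4.37 and 4.98 for miR-6360, and 4.64 and 5.51 for miR-12204-5p. For miR-5615-3p the SD of the siOCT4-DMSO group was 0.99.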

How the results depend on the processing

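Recomputed in 1091 values were the called probes, the probes of lowest p and the means of the miRNAs that the study lists. The means of the other named miRNAs were not among them. No value took the opposite sign, though MIRNA100009124, TRF100005770 and TRF100005766 fell to a difference of 0 under an alternative. Of the values, 711 kept their side of the threshold or, for means, which had no test, moved by less than the spread between replicates. A further 307 lost a call, 32 gained one and 41 were means that moved by more than that spread. Against 19 called miRNA probes, all lower, the totals called under the alternatives were 10 (75th percentile of all small RNA probes), 32 (75th percentile of probes above background on all arrays), 1 (normexp, a higher probe that is none of the 19), 7 (floor of 8), 33 (deposited series table), 3 (no filter), 6 (above background on all 12 arrays), 0 (all 12 arrays fitted together, slide as a block or not), 32 (intensity trend), 2 (probes of a named miRNA averaged), 0 (the methods' t-test after adjustment), 211 (limma, unadjusted p, 107 higher and 104 lower) and 157 (69 higher and 88 lower, the methods' t-test, unadjusted). Against 3 called PST and TRF probes the totals were 6 and 9 (both 75th percentile scalings), 0 (normexp), 0 (floor of 8), 1 (series table), 0 (above background on all 12 arrays), 1 (above background on 3 of the 6 siNT arrays), 0 and, with slide as a block, 1 (all 12 arrays), 0 (methods' t-test), 41 and 32 (unadjusted p). Leaving out 1 array gave 0 to 4 miRNA probes and 0 to 2 other probes. With normexp the difference of the miR-6927-5p probe MIRNA100006501 was −0.31 in place of −2.55.

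For the difference between the POVPC effects, 0 miRNA and 0 other probes became 1 miRNA probe with a floor of 8, 370 and 226 with slide as a block, and 304 and 74 at an unadjusted p with 1.5-fold. Leaving out any of the 12 arrays gave 0 to 0 in both classes.

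Same-numbered siNT arrays correlated in their deviations at −0.24, 0.42 and 0.33, so the numbers were not taken to pair the samples. With the replicate block 5 miRNA probes and 1 other probe were called, and 0 and 0 for the difference of effects. Array row on the slide, added after the data had been seen, is shared by siNT-DMSO and only 1 siNT-POVPC array. With it as a block no miRNA, PST or TRF probe was called, and row and treatment can hardly be told apart.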
